A study of Mus musculus with 20 samples.

Results

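The proteasome genes of mouse liver and liver tumours were followed by RNA sequencing over 5 groups of 4 libraries. Members were all genes whose mouse symbol is Psm, a letter from a to g and a digit, without pseudogene names, that had at least 10 counts in at least 4 of the 20 libraries. Of 54 symbols of that form, 4 were pseudogene names and 1, Psmb11, a subunit known from the thymus, had no count in any library. The other 49 were the members, out of 55359 gene identifiers, of which 14512 met the same minimum. All 49 were among the 14428 genes tested. The rule reads symbols only, and 3 members are not parts of the usual proteasome: Psmc3ip is a recombination factor named for binding Psmc3, Psme2b is a copy of Psme2 that can share its reads, and Psma8 is an alpha subunit known from testis. These 3 averaged 0.668, 2.68 and 0.913 TPM (counts per gene length, scaled to the same total in each library) over the 20 libraries, and the plots show the other 46, a list drawn after their levels were seen.

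The tissue was liver of male wild-type mice, strain given as C56BL/6, at 35 weeks of age. According to the protocol, the skin of the back received 50 µL of 0.5% DMBA, a chemical carcinogen, on postnatal day 4 to 5, and dams and pups then ate a high-fat diet with 60% or a normal diet with 12% of its energy as fat. From 20 weeks of age the exercised high-fat mice ran on a treadmill. They trained for 5 weeks from 10 m/min upwards and then ran for 10 weeks at 18 m/min for 20 min a day, 5 days a week. Exercised and non-exercised mice were killed on 1 day, within 2 h of the last run. The groups were exercised high-fat tumours, non-exercised high-fat tumours, exercised high-fat non-tumour liver, non-exercised high-fat non-tumour liver, and non-exercised normal-diet liver, which the titles do not call tumour or non-tumour. The protocol describes the obese mice as weighing over 45 g. Normal-diet mice were not exercised, so exercise was compared on the high-fat diet only. Albumin (Alb), the main secreted protein of hepatocytes, stood between 37503 and 181645 CPM (counts scaled to library size) in the 20 libraries; the tumour label was not checked against tumour markers. Libraries held 16471378 to 20271948 counts. In pieces of whole tissue, fewer cells of a type and less RNA per cell cannot be told apart.

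The 26S proteasome is the protease that degrades proteins tagged with ubiquitin. Its 20S core is a barrel of alpha and beta rings, in which the beta subunits encoded by Psmb5, Psmb6 and Psmb7 cut the substrate, and its 19S cap, built of the Psmc ATPases and the Psmd subunits, binds, unfolds and feeds it. Interferon induces Psmb8, Psmb9 and Psmb10, which replace the standard cutting subunits in the immunoproteasome and favour peptides for display on MHC class I. When the proteasome is inhibited, mammalian cells raise most subunit genes together through Nfe2l1 (NRF1).

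Promoter sequence from RefSeq (GRCm38.p6) was matched for 41 of the 49 members, as 44 windows running from 250 bases before to 50 after the start. They were searched on both strands for TGACNNNGC, the antioxidant response type that NRF proteins bind, GAAA, any pair of bases and GAAA again, the interferon-stimulated response type, TTCNNNGAA, the STAT type, and CCAAT, the NF-Y type. No matches of different motifs overlapped. TGACNNNGC stood in 13.6% of member windows against 12.4% of all 32851 windows in the table, the GAAA pair in 11.4% against 3.44%, TTCNNNGAA in 6.82% against 8.3%, and CCAAT in 31.8% against 37.4%. The GAAA pair stood in 5 member windows, those of Psmb3, Psmd4, Psmd9, Psme1 and Psmg4, and in 0 of 3 windows of the immune subunits. A match is a run of letters and not a bound site, and no binding was measured. Shown are the immune subunits Psmb8 and Psmb9, whose transcripts rose on the high-fat diet, and the standard subunit Psmb5, the 19S chaperone Psmd9 and the activator Psme4, which fell in tumours. These 5 were chosen with the matches and the values known. Capitals mark the first 3 motifs on either strand.
Psmb8: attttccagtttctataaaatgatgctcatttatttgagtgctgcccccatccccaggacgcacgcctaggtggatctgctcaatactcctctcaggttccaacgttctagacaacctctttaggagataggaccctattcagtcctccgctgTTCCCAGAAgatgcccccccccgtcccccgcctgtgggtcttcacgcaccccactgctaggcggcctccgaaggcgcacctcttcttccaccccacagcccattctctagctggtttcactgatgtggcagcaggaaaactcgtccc
Psmb9: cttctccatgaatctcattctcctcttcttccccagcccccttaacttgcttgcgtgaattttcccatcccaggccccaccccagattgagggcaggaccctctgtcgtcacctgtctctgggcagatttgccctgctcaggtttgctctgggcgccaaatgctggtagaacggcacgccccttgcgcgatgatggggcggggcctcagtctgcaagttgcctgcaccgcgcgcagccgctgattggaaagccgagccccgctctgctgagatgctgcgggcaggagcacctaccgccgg
Psmb5: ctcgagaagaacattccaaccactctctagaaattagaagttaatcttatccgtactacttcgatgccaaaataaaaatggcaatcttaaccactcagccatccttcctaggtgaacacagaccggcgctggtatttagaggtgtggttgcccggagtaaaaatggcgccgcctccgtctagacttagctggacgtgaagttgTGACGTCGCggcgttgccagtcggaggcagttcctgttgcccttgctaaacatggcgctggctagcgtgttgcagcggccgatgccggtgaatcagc
Psmd9: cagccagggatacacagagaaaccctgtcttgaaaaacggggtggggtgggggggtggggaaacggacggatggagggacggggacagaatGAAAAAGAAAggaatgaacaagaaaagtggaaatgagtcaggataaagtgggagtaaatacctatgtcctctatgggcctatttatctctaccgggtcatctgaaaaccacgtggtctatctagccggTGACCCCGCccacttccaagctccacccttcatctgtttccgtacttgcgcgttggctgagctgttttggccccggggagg
Psme4: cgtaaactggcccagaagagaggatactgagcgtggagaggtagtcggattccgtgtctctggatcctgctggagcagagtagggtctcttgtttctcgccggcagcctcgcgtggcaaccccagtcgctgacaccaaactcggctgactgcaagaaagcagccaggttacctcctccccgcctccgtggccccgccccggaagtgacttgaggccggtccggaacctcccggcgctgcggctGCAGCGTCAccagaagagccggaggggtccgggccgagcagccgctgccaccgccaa
In GRCm38.p6 these windows lie at chr17:34197945-34198244 (plus strand) for Psmb8, chr17:34187281-34187580 (minus) for Psmb9, chr14:54617946-54618245 (minus) for Psmb5, chr5:123227940-123228239 (plus) for Psmd9 and chr11:30771525-30771824 (plus) for Psme4. The Psmb8 window holds a STAT type match, those of Psmb5 and Psme4 an antioxidant response type match, and that of Psmd9 an antioxidant and an interferon-stimulated response type match. The Psmb9 window holds none of the 3, which says only that these letters are not in it.

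Levels of different genes were compared per gene length as given in the files, as TPM averaged over the 20 libraries. That length was 899 bases for Psmb5, 3381 for Psmb8, 3660 for Psmb9 and 7248 for Psmd9. It was not checked against the transcripts made in liver, and the order of genes below rests on it. Apart from Psma8, the alpha ring ran from 43.9 TPM for Psma3 to 199.5 TPM for Psma6. Among the standard cutting subunits, Psmb6 averaged 149 ± 18.9 TPM, Psmb7 88.3 ± 14.6 TPM and Psmb5 81.7 ± 12.8 TPM (SD over 20 libraries). The immune subunits were lower, at 37.3 ± 9.68 TPM for Psmb10, 29.1 ± 9.64 TPM for Psmb8 and 14.4 ± 5.35 TPM for Psmb9. The ATPases lay between 50.2 TPM for Psmc2 and 143 TPM for Psmc1. Of the activators, Psme1 and Psme2, which form the interferon-inducible PA28 ring, averaged 100.1 and 85.6 TPM, nuclear Psme3 53.5 TPM and Psme4, the PA200 cap, 42.6 TPM. Helpers that do not stay in the finished particle were among the lowest, such as the core chaperone Psmg3 at 6.25 TPM and the 19S chaperone Psmd9 at 11.9 TPM.

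Tumour pieces of either arm held less transcript of most proteasome genes than non-tumour liver, by a modest step. All 49 members together took 0.273% to 0.319% of all counts in exercised tumours and 0.274% to 0.346% in non-exercised tumours, against 0.358% to 0.384% in the exercised and 0.361% to 0.415% in the non-exercised non-tumour pieces and 0.353% to 0.375% in normal-diet liver. Each tumour library was below every library of the other 3 groups in this share. A share of counts also falls when other genes take more of them. The 10 hepatocyte markers listed, Alb among them, took 14.2% to 19.9% of counts in exercised and 12.5% to 20.4% in non-exercised tumours. They took 8.57% to 10.6% in exercised and 7.05% to 9.69% in non-exercised non-tumour pieces, and 8.72% to 9.41% in normal-diet liver. The summed CPM of the 49 members, scaled as in the tests, overlapped. It was 3241 in mouse 1 of the exercised tumours and 3166 in mouse 4 of the non-exercised non-tumour pieces. Within each arm it did not overlap. Tumours had 3008 to 3241 against 3433 to 3925 in the exercised arm, and 2881 to 3145 against 3166 to 3835 in the other. The summed TPM of the 49 members, which weights genes by length, overlapped too, at 2606 to 3087 in exercised and 2729 to 3471 in non-exercised tumours, against 3450 to 3565 in exercised and 3547 to 4043 in non-exercised non-tumour pieces and 3248 to 3535 in normal-diet liver. The mean CPM of both tumour groups was below that of each other group for 30 of the 31 standard 26S subunits, the exception being Psmd8. With TPM both tumour groups were below the others for 27 of the 31. Which group was lowest or highest turned with the scale. In CPM, non-exercised tumours had the lowest mean for 24 and normal-diet liver the highest for 28, and in TPM exercised tumours had the lowest for 30 and non-exercised non-tumour liver the highest for 26.

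**Figure D1:**
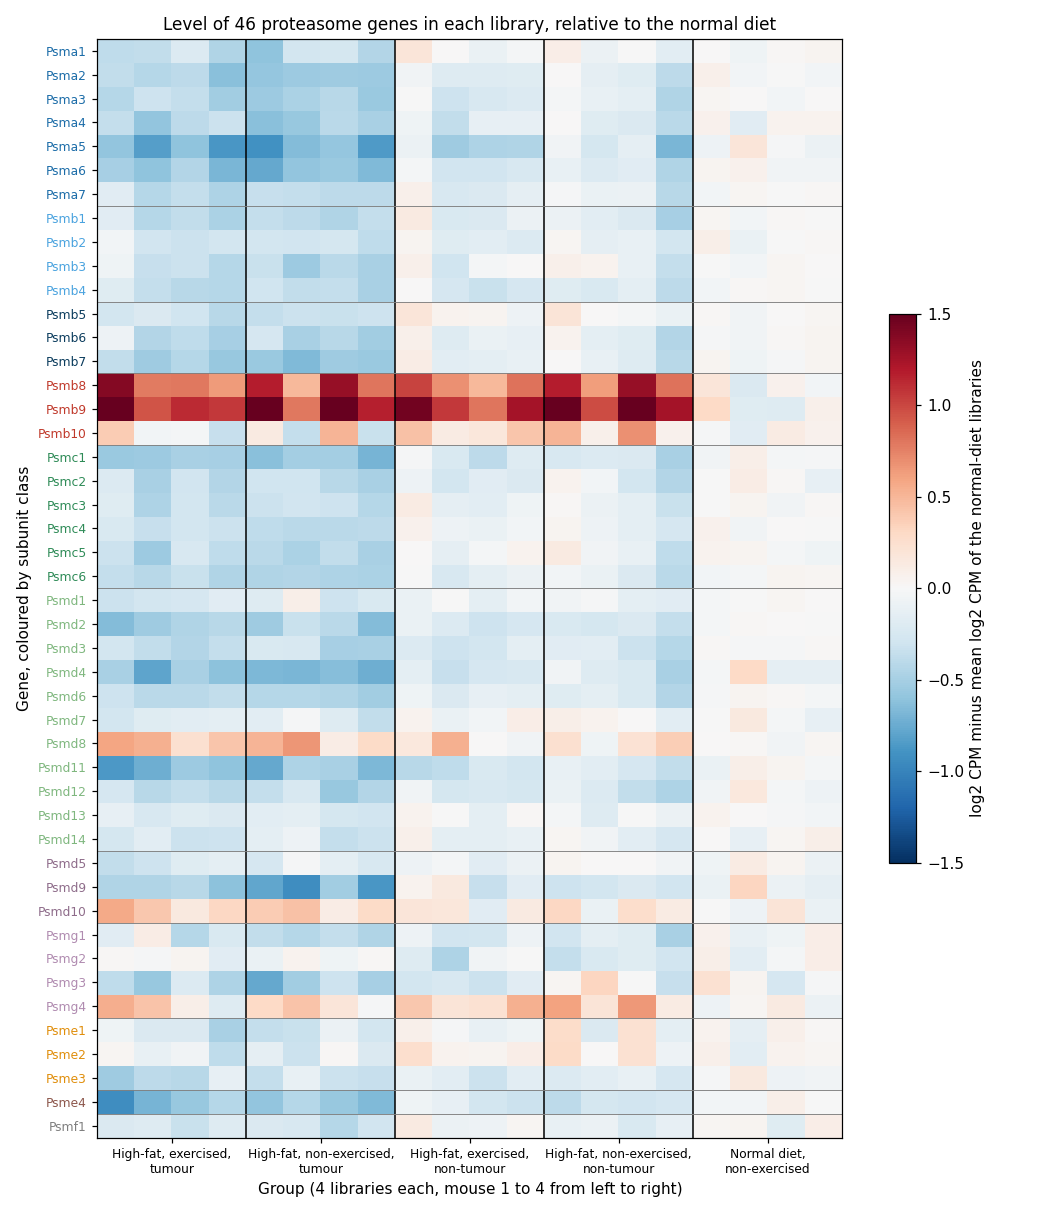
Level of 46 proteasome genes in each of the 20 libraries, as log2 CPM minus the mean log2 CPM of the 4 normal-diet libraries (columns are libraries by group, rows are genes by subunit class, blue is lower and red higher). Most rows are bluest in the 8 tumour columns on the left, the immune subunits Psmb8 and Psmb9 are red in all 16 high-fat columns, and Psmd8 is red in the tumours.

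In the exercised arm, 21 of 49 members fell in tumours relative to non-tumour liver and 0 rose (edgeR quasi-likelihood test, adjusted p under 0.05 over all genes tested), where 16% of all genes tested fell and 18.6% rose. In the non-exercised arm, 22 fell and 0 rose, where 17.8% of all genes fell and 18% rose. In either direction, 34.6% of all genes were called in the exercised and 35.8% in the non-exercised arm. The median log2 fold change over the 49 was -0.23 in the exercised and -0.22 in the non-exercised arm, beside 0.011 and -0.0058 over all genes tested. Of the members, 42 and 45 had a negative fold change. The groups of 4 did not overlap, with tumours lower, for 22 members in the exercised arm, where 13.9% of all genes did so, and for 13 in the non-exercised arm, where 18.2% did. The 2 arms share no library. The 17 members that fell in both were 81.0% of the exercised and 77.3% of the non-exercised list. How many of all genes tested fell in both arms was not counted, so these shares have no background beside them. With the mouse as a block 16 members fell in both, of which 14 were among the 17. In that fit Psma4 in the exercised arm (edgeR adjusted p = 0.0666) and Psmd2 and Psme4 in the non-exercised arm (0.0979 and 0.115) no longer passed, and neither did Psmb1 and Psmd13 in the exercised arm (0.0538 and 0.106). When each arm was fitted from its own 8 libraries alone, 11 rather than 21 members fell in the exercised arm. In the other arm 18 rather than 22 fell. Of all genes, 3432 of 13614 and 4675 of 13813 were called in these fits, against 4986 and 5164 of 14428 in the main fit.

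By role, 5 of the 8 alpha ring genes of the core fell in exercised and 6 in non-exercised tumours. Psma6 had 83.1, 77.1, 86.4 and 73.2 CPM in exercised tumours, against 115, 95.8, 96.5 and 99.6 CPM in exercised non-tumour liver. It had 69.1, 77.9, 79.7 and 74.0 CPM in non-exercised tumours, against 109, 102, 104 and 86.1 CPM in non-exercised non-tumour liver. In both arms its groups did not overlap, and its log2 fold changes were -0.35 ± 0.084 and -0.42 ± 0.084 (SE; edgeR adjusted p = 0.0047 and 0.00121). Psma1, Psma2, Psma4 and Psma5 also fell in both arms, by -0.25 to -0.48, and Psma3 fell in non-exercised tumours (-0.32). Of 16 alternatives the Psma4 call in exercised tumours was lost in 9 and the Psma5 call there in 8. Whether the arms differed was tested as the interaction, given with the exercise comparisons.

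Of the 3 standard cutting subunits, Psmb5, which carries the chymotrypsin-like activity, and Psmb7, which carries the trypsin-like one, fell in both arms. Psmb5 had 25, 26, 24.6 and 22.6 CPM in exercised and 23.5, 24.2, 24.0 and 24.4 CPM in non-exercised tumours. The matching non-tumour pieces held 34.3, 31.4, 31.2 and 28.6 CPM in the exercised and 34.6, 30.3, 29.7 and 28.3 CPM in the non-exercised arm. All 8 tumour libraries were below all 8 non-tumour libraries. The log2 fold change of Psmb5 was -0.35 ± 0.069 in each arm (SE; edgeR adjusted p = 0.0012 and 0.000917, exercised arm first). Psmb7 had log2 fold changes of -0.40 in exercised and -0.41 in non-exercised tumours (edgeR adjusted p = 0.00234 and 0.00164). Psmb6, the caspase-like subunit, did not pass (log2 fold changes -0.25 in each arm, edgeR adjusted p = 0.0665 and 0.0734), but passed with the mouse as a block (edgeR adjusted p = 0.0302 and 0.0366). Among the beta subunits with no cutting site, Psmb1 fell in exercised tumours (-0.26) and Psmb3 in non-exercised tumours (-0.36). Of 16 alternatives the Psmb1 call was lost in 8 and the Psmb3 call in 0.

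**Figure D2:**
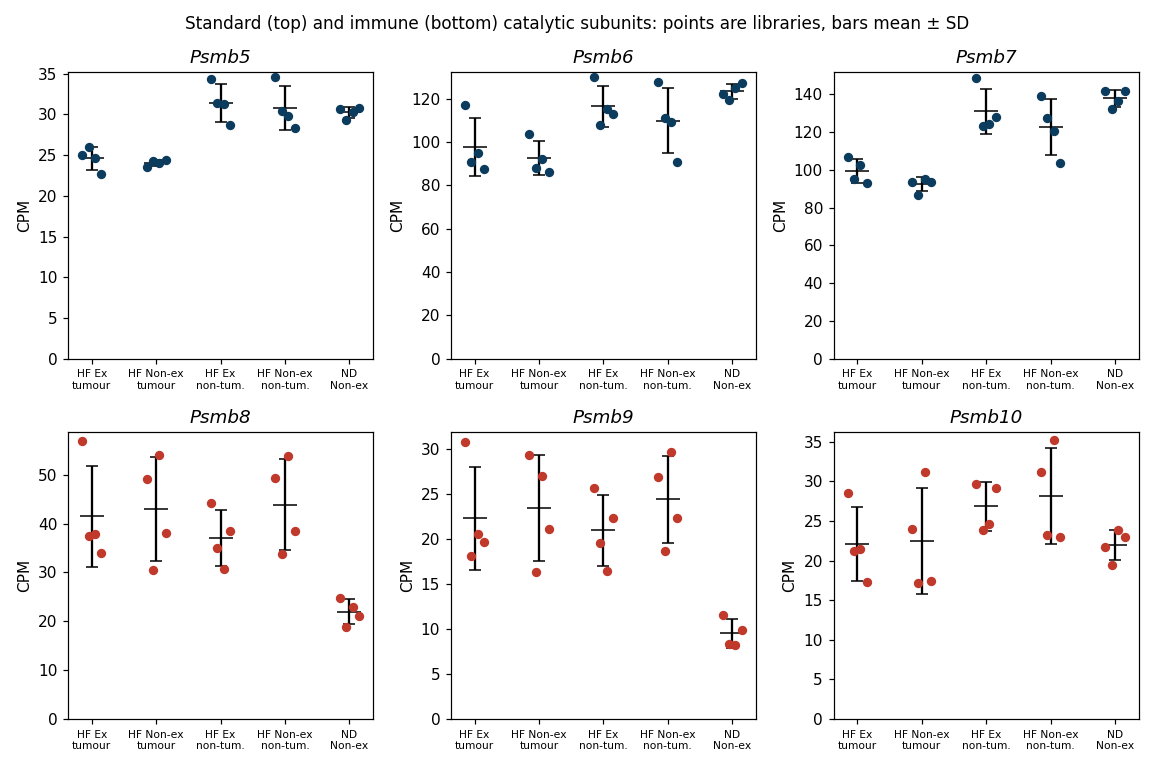
CPM of the standard cutting subunits Psmb5, Psmb6 and Psmb7 (top) and the immune Psmb8, Psmb9 and Psmb10 (bottom) by group, with points for the 4 libraries, a line for the mean and bars for the SD, and axes starting at 0. Psmb5 lies between 22.6 and 26 CPM in the 8 tumour libraries and at or above 28.3 CPM in the other 12, and Psmb9 lies at or above 16.3 CPM in the 16 high-fat libraries and at or below 11.6 CPM on the normal diet.

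In the 19S cap, 5 of 6 ATPases fell in exercised and 4 of 6 in non-exercised tumours, with Psmc1, Psmc4, Psmc5 and Psmc6 in both and Psmc3 in the exercised arm. Of the 11 other cap subunits, 5 and 4 fell, namely Psmd2, Psmd4, Psmd6 and Psmd11 in both arms and Psmd13 in the exercised arm. Of 16 alternatives the non-exercised call of Psmd2 was lost in 9 and that of Psmd6 in 6. The exercised call of Psmd13 was lost in 9. Psmd4, which binds ubiquitin chains, had 92.3, 75, 92.8 and 84.5 CPM in exercised tumours, against 117, 102, 109 and 110 CPM in exercised non-tumour liver. The values in non-exercised tumours were 81.4, 80.7, 83.4 and 77.6 CPM, against 125, 113, 111 and 92.6 CPM in non-exercised non-tumour liver. Its groups did not overlap in either arm, and its log2 fold changes were -0.35 ± 0.10 and -0.45 ± 0.10 (SE; edgeR adjusted p = 0.0158 and 0.00293). Psmd8, also a cap subunit, stood the other way without passing, at 141 to 180 CPM in exercised tumours against 115 to 173 CPM in exercised non-tumour liver, and 129 to 189 CPM in non-exercised tumours against 114 to 154 CPM in non-exercised non-tumour liver (log2 fold changes 0.27 and 0.21, edgeR adjusted p = 0.125 and 0.231). Psmd14, the deubiquitinating subunit of the cap, was not called in either arm.

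Psmd9, a chaperone that helps assemble the ATPase ring, had the lowest fold changes of the 17 shared genes in the non-exercised arm and the lowest but 1 in the exercised arm. It had 29.7, 29.6, 30.5 and 26.6 CPM in exercised tumours, against 42.2, 44.9, 32.1 and 36.1 CPM in exercised non-tumour liver. In the other arm it had 23.7, 21.3, 28.3 and 22.2 CPM in tumours, against 32.8, 33.7, 35.1 and 33.3 CPM in non-tumour liver. It fell by 0.41 ± 0.11 and by 0.50 ± 0.11 on the log2 scale (SE; edgeR adjusted p = 0.00989 and 0.00296). The related chaperone Psmd10 (gankyrin), known as an oncoprotein in human liver cancer, was at 0.28 and 0.15 and was not called (edgeR adjusted p = 0.0657 and 0.313). Of the 4 core chaperones, Psmg3 fell in non-exercised tumours (-0.53), while Psmg2 was at 0.14 in exercised and 0.24 in non-exercised tumours without passing. In CPM all 8 tumour libraries were below all 12 others for 5 members, Psmd9, Psma1, Psmd11, Psmb5 and Psme4, which is 10.2% of the members, where 5.97% of all genes tested did so. In TPM none of these 5 separated the libraries, but 5 other members did, again 10.2%, where 4.58% of all genes tested did so.

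Psme4, whose product PA200 caps the core without using ATP, was the lowest member called in exercised tumours. It had 89.4, 106, 115 and 128 CPM there, against 164, 157, 141 and 137 CPM in exercised non-tumour liver. Non-exercised tumours held 114, 127, 116 and 108 CPM, against 131, 142, 140 and 144 CPM in non-exercised non-tumour liver. The groups did not overlap in either arm, and the log2 fold changes were -0.45 ± 0.095 and -0.26 ± 0.095 (SE; edgeR adjusted p = 0.00186 and 0.0393). The Psme4 call in non-exercised tumours was lost in 10 of 16 alternatives, RLE scaling among them, and that in exercised tumours in 0. Psme1 and Psme2 fell in non-exercised tumours (-0.31 and -0.28, edgeR adjusted p = 0.0331 and 0.0375) and were at -0.21 and -0.24 in exercised tumours without passing. Of 16 alternatives the Psme2 call in non-exercised tumours was lost in 10, RLE and upper-quartile scaling and DESeq2 among them, and the Psme1 call in 7. With the mouse as a block Psme2 also passed in exercised tumours (edgeR adjusted p = 0.0467). Psmf1, encoding the regulator PI31, fell in exercised tumours (-0.23). Psme3 was not called in either arm.

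**Figure D3:**
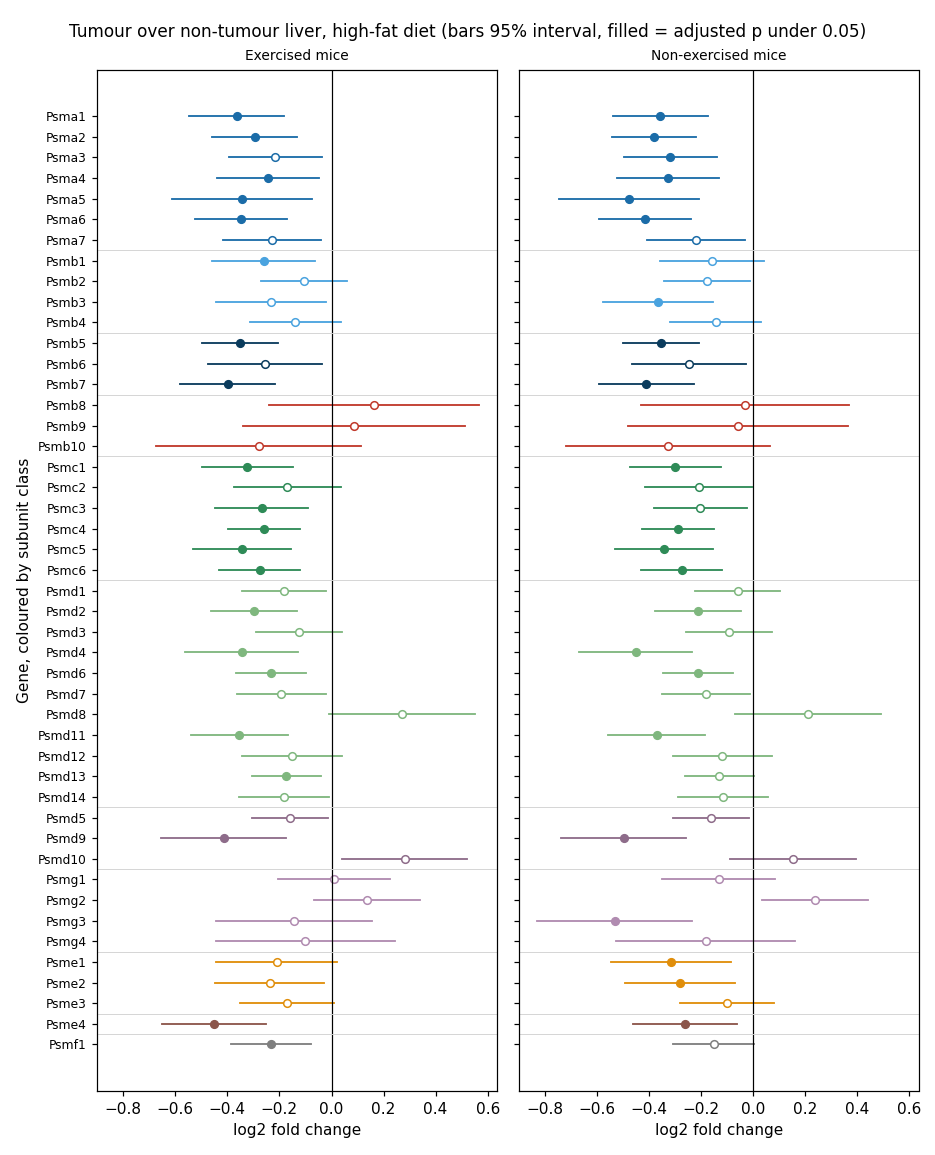
Log2 fold change of 46 proteasome genes in tumours over non-tumour liver, exercised mice left and non-exercised mice right, with 95% intervals and filled points where the edgeR adjusted p is under 0.05. The filled points are all left of 0, 21 in the exercised and 22 in the non-exercised panel, and the immune subunits Psmb8 and Psmb9 straddle 0.

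None of the 3 immune subunits was called in tumours of either arm in the main fit. Psmb10 in the non-exercised arm passed in 2 of 16 alternatives, the mouse as a block among them (-0.35, edgeR adjusted p = 0.0356). Psmb8 averaged 41.5 ± 10.3 CPM in exercised tumours, against 37.1 ± 5.70 CPM in exercised non-tumour liver, and 42.9 ± 10.6 CPM in non-exercised tumours, against 43.8 ± 9.32 CPM in non-exercised non-tumour liver (SD, n = 4 each). Psmb9 had log2 fold changes of 0.087 and -0.057, and Psmb10 of -0.28 and -0.33, none past the test, with 95% intervals as wide as -0.34 to 0.51 for Psmb9 in the exercised arm. The TPM ratio of Psmb8 to Psmb5, its standard counterpart, was 0.448 ± 0.104 in exercised and 0.475 ± 0.123 in non-exercised tumours. It was 0.314 ± 0.0439 in exercised and 0.379 ± 0.0767 in non-exercised non-tumour pieces and 0.192 ± 0.0196 in normal-diet liver (SD, n = 4 each). In the exercised tumours mouse 1 had 0.603 and the others 0.383 to 0.408. Psmb9 over Psmb6 averaged 0.115 in exercised and 0.129 in non-exercised tumours, against 0.0919 and 0.114 in the matching non-tumour pieces and 0.0394 in normal-diet liver. Psmb10 over Psmb7 averaged 0.444 and 0.486, against 0.411 and 0.462 in non-tumour pieces and 0.320 in normal-diet liver, and its libraries overlapped between tumour and non-tumour pieces in both arms. A ratio within a library needs no scaling between libraries, and these ratios were not tested. Their absolute size rests on the gene lengths used.

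The fold changes of the proteasome genes were small beside those of many other genes. Among all genes tested, the 5th and 95th percentiles of the log2 fold change were -0.97 and 1.64 in the exercised and -1.10 and 1.55 in the non-exercised arm. The 46 genes plotted ran from -0.45 to 0.28 and from -0.53 to 0.24. Other tissue markers also moved in tumours. Of 10 hepatocyte markers, 4 rose in each arm, led by Apoa1 (1.62 and 1.64) and Alb (1.40 in non-exercised tumours), while 2 in exercised and 3 in non-exercised tumours fell, among them Cyp2e1 (-2.04 and -2.13). Alb was also higher in exercised tumours, at 103156 to 181645 CPM, against 50930.3 to 70694.5 CPM in exercised non-tumour liver. Of 8 endothelial markers, 4 rose and 0 fell in exercised and 3 rose and 0 fell in non-exercised tumours. Of 6 cholangiocyte markers, 2 rose in each arm (Spp1 and Sox9), with 0 and 1 falling. Most of their summed level was Spp1, at 92.4 to 1432 CPM in exercised and 358 to 1445 CPM in non-exercised tumours, against 37.2 to 107 CPM and 37.8 to 165 CPM in the matching non-tumour pieces. The keratins Krt7 and Krt19, Epcam and Cftr stayed at or under 3.45 CPM in all groups, and 4 of the 6 had a negative fold change in non-exercised tumours. Of 10 stellate cell markers, 2 rose in each arm and 0 and 1 fell. None of 17 leukocyte markers was called in either arm. The part of these in the proteasome result was not tested.

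**Figure D4:**
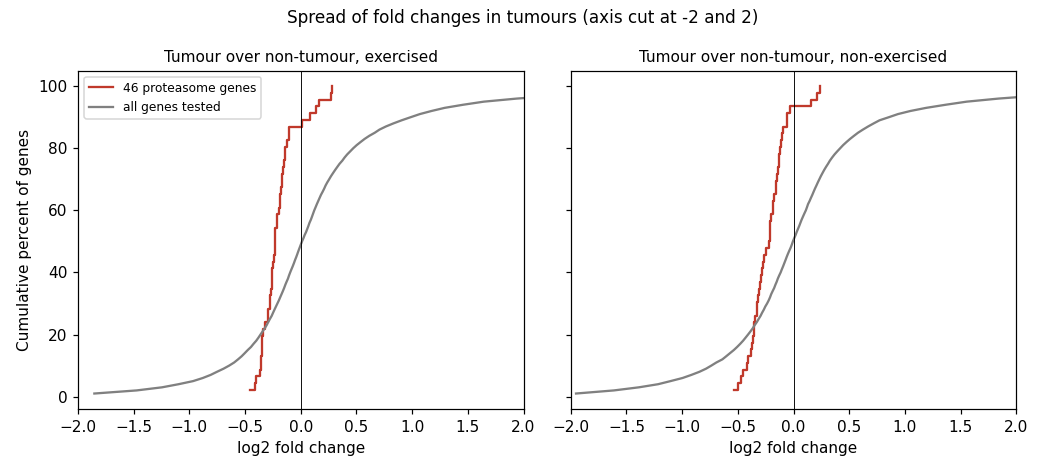
Cumulative percent of genes by log2 fold change in tumours over non-tumour liver, exercised left and non-exercised right, for 46 proteasome genes (red) and all genes tested (grey), with the axis drawn from -2 to 2. The proteasome curve is steep and lies mostly left of 0, between -0.45 and 0.28 and between -0.53 and 0.24, while the grey curve is centred near 0 and far wider.

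On the high-fat diet, without exercise, 2 immune subunits rose relative to normal-diet liver, and 7 other members fell slightly (edgeR quasi-likelihood test, adjusted p under 0.05). Over all genes tested 14% rose and 11.9% fell, 25.9% in either direction. The 9 of 49 members called were a smaller share than that, and the 7 that fell were near the share of all genes that fell. By mouse number, the high-fat pieces were read as liver of mice that also gave tumours. The titles do not say whether normal-diet mice bore tumours, so diet and bearing a tumour cannot be told apart here. Psmb9 had 26.9, 18.6, 29.6 and 22.4 CPM on the high-fat diet, against 11.6, 8.32, 8.25 and 9.92 CPM on the normal diet. The lowest high-fat library was above the highest normal-diet library, and the log2 fold change was 1.36 ± 0.21 (SE; edgeR adjusted p = 0.000361). Psmb8 had 49.4, 33.7, 53.8 and 38.5 CPM, against 24.8, 18.8, 22.9 and 21.2 CPM on the normal diet, again without overlap, and a log2 fold change of 1.0 ± 0.20 (SE; edgeR adjusted p = 0.00166). Psmb10 had 31.2, 23.2, 35.2 and 23.0 CPM, against 21.7, 19.4, 23.8 and 23.0 CPM, so that the groups overlapped (0.36 ± 0.19, edgeR adjusted p = 0.168). Groups of 4 did not overlap, with the high-fat diet higher, for these 2 subunits alone among the members, where 16.8% of all genes did so.

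Psmb9 and Psmb8 lie side by side on chromosome 17, interleaved with the peptide transporter genes that load MHC class I. In the files' build, GRCm39, Psmb9 spans chr17:34400961-34406738 on the minus strand, Tap1 chr17:34406527-34416199, Psmb8 chr17:34416695-34420428 and Tap2 chr17:34422501-34435295, all 3 on the plus strand. Tap1 and Tap2 rose too (1.11 and 0.64). Psmb9 and Tap1 overlap on opposite strands, and the counting used strand. Of 13 genes of MHC class I presentation and its inducers, 7 rose and 0 fell on the high-fat diet, among them Irf1 (1.19), a factor of the interferon response. Psme1 and Psme2, which interferon also induces, were at 0.050 and 0.12 and were not called.

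Leukocyte markers moved in the same comparison. Of the 17, 11 rose and 1, the B-cell gene Ms4a1, fell, with Itgax (2.86), Cd68 (1.48) and Fcer1g (1.36) among those that rose, and none of the 17 was at 0 in either group. Their summed level was 555, 318, 776 and 626 CPM on the high-fat diet, against 270, 283, 237 and 206 CPM on the normal diet. The summed immune subunits stood at 107.5, 75.5, 119 and 83.8 CPM in the same libraries, against 58.1, 46.5, 55.0 and 54.1 CPM. Mouse 3 of the high-fat group had the highest and mouse 2 the lowest of both sums. Mouse 4 had more of the leukocyte markers than mouse 1, but less of the immune subunits. Stellate cell markers rose for 4 of 10 and fell for 0, hepatocyte markers fell for 4 of 10 and rose for 0, endothelial markers fell for 2 of 8 and rose for 0, and none of 6 cholangiocyte markers was called. How far these cells account for the immune subunits was not tested.

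The members that fell on the high-fat diet were Psmb4, Psmc1, Psmd2, Psmd3, Psmd6, Psmd12 and Psme4, with log2 fold changes of -0.23 to -0.30, and their calls rested on how libraries were scaled and filtered. Psmd2, a large scaffold subunit of the cap, had 181, 177, 182 and 166 CPM on the high-fat diet, against 207, 215, 213 and 212 CPM on the normal diet, without overlap (-0.27 ± 0.079, SE; edgeR adjusted p = 0.0195). In total, 14 members did not overlap with the high-fat diet lower, where 16.3% of all genes did so. With upper-quartile scaling 3 members rose and 0 fell. With library totals and no scaling factor 8 rose and 0 fell, against 2 and 7 here. Of all 14428 genes these 2 settings called 3653 and 4295, against 3740 here. The 7 stayed negative under both, at -0.16 to -0.23 with upper-quartile scaling and -0.0050 to -0.072 with library totals. With no filter on low counts 2 rose and 0 fell, where 2823 of 29517 genes were called. Other settings called more that fell, 9 with RLE scaling and 12 with DESeq2, with 2 rising in each. The summed TPM of the 31 standard subunits, which carries no such factor, was 3169 ± 179 on the high-fat diet and 2940.5 ± 119 on the normal diet (SD, n = 4 each), while their summed CPM was 2919 ± 248.8 and 3268 ± 36.6. Psmb8 and Psmb9 rose under all 16 alternatives run. Mouse 4 of the high-fat group was the lowest of its group for 29 of the 31 subunits, and without it 2 members rose and 1 fell. Without mouse 3, 2 rose and 3 fell. Of 14623 genes these 2 fits called 2713 and 2753.

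**Figure D5:**
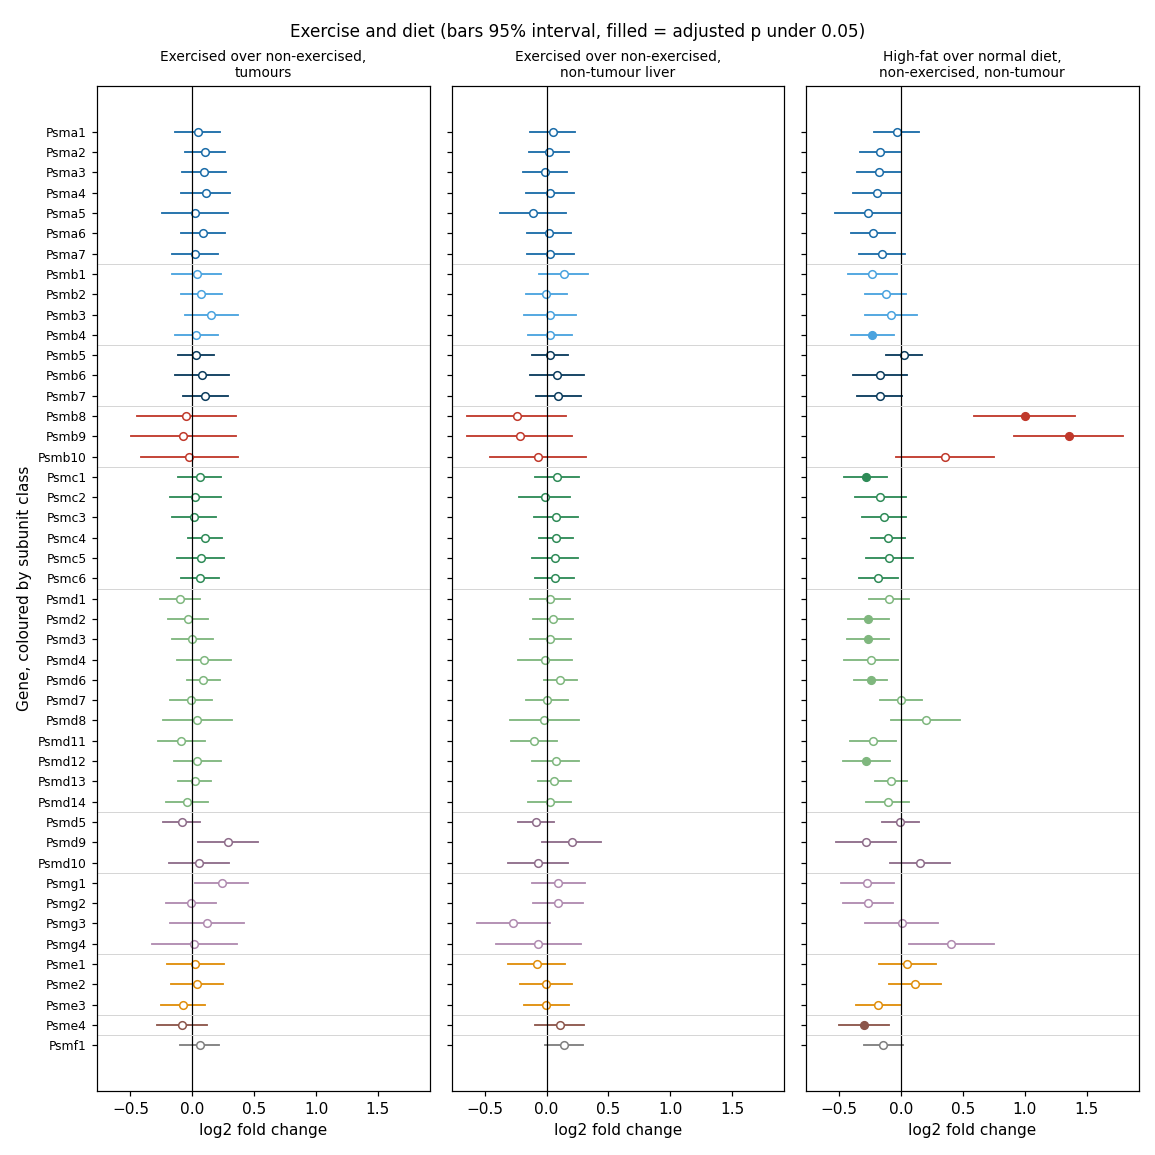
Log2 fold change of 46 proteasome genes for exercised over non-exercised mice in tumours (left) and non-tumour liver (middle). The right panel gives high-fat non-tumour liver over normal-diet liver in non-exercised mice. Bars are 95% intervals, and points are filled where the edgeR adjusted p is under 0.05. No point is filled in the exercise panels, while Psmb8 at 1.0 and Psmb9 at 1.36 stand apart on the right beside 7 small filled points below 0, none of which passed with upper-quartile scaling or library totals.

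Exercise changed no member past the test, either in tumours or in non-tumour liver. The study asks whether running acts on fatty-liver cancer through degradation of the proteins E2F1 and c-Myc, and these data measure proteasome transcripts, not protein turnover. In tumours 0 of 49 members were called by edgeR or by DESeq2, 2 (4.08%) had an unadjusted p under 0.05, as had 8.68% of all genes tested. Over all genes edgeR called 3, or 0.0208%, and DESeq2 79. In non-tumour liver 0 were called by either tool, and 0 had an unadjusted p under 0.05, where 8.34% of all genes had. Over all genes edgeR called 2, or 0.0139%, and DESeq2 106. The interval of the difference lay within 1.5-fold either way for all 46 plotted members in tumours and for 44 in non-tumour liver, and within 2-fold for the 46 in both. Missing the threshold does not show that levels were alike. The median log2 fold change of the 49 was 0.039 in tumours and 0.025 in non-tumour liver.

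The 2 smallest p in tumours belonged to the chaperones Psmd9 and Psmg1. Psmd9 had 29.7, 29.6, 30.5 and 26.6 CPM in exercised tumours, against 23.7, 21.3, 28.3 and 22.2 CPM in non-exercised tumours, with overlap (0.29 ± 0.12, edgeR adjusted p = 0.50). Psmg1, a core chaperone, was at 0.24 ± 0.10 (SE; edgeR adjusted p = 0.541). Groups of 4 did not overlap for 2 members, Psmc4 and Psmd6, both higher in exercised tumours, where 2.27% of all genes did so. In non-tumour liver no member was without overlap, where 2.54% of all genes were higher and 2.27% lower without it. Of the immune subunits, Psmb8 was at -0.049 in tumours and -0.24 in non-tumour liver, Psmb9 at -0.075 and -0.22, and Psmb10 at -0.023 and -0.070. Their intervals were wide, down to -0.50 for Psmb9 in tumours and -0.65 for Psmb8 in non-tumour liver. Summed leukocyte markers were 247 to 456 CPM in exercised and 282 to 902 CPM in non-exercised tumours, and 339 to 406 CPM in exercised and 318 to 776 CPM in non-exercised mice away from the tumours, with none of the 17 called in either comparison.

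The tumour step was also not shown to differ between the arms. The interaction called 0 of 49 members and 0% of all genes tested, and no member had an unadjusted p under 0.05. DESeq2 called 0 members as well. The interval of the difference between the arms lay within 1.5-fold for 42 of 46 members and within 2-fold for all 46. For Psme4 the interaction was -0.19 and for Psmb5 0.0016 on the log2 scale.

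Genes that work with the proteasome outside the symbol rule were called about as often as all genes in tumours, counting both directions. More of them fell than rose. Of 25 partners tested, 7 fell and 1 rose in each arm, 32% called, where 34.6% of all genes in the exercised and 35.8% in the non-exercised arm were. By direction, 16% of all genes fell and 18.6% rose in the exercised arm, and 17.8% fell and 18% rose in the other. The maturation factor Pomp fell (-0.30 in exercised and -0.33 in non-exercised tumours), as did the cap's deubiquitinase Uchl5 (-0.21 and -0.31). Another cap deubiquitinase, Usp14, fell in exercised tumours (-0.32). Ubqln2, a ubiquitin shuttle, rose in non-exercised tumours (1.02) and Rps27a, a ubiquitin-ribosome fusion gene, in exercised tumours (0.42). On the high-fat diet 6 of the 25 fell and 0 rose, 24% called beside 25.9% of all genes. By direction, 11.9% of all genes fell and 14% rose in that comparison. Among the 6 partners was Nploc4 (-0.40), a cofactor of the unfolding enzyme p97. Of 11 regulators of proteasome genes, 2 rose and 2 fell in tumours of each arm, 36.4% called, also near the share of all genes. The stress factor's small partner Mafg fell (-0.58 in exercised and -0.61 in non-exercised tumours), as did Ngly1, the enzyme that activates NRF1 by removing its sugars (-0.48 and -0.56), while the repressor Bach1 (0.76 and 0.82) and Maff (1.46 in exercised tumours) rose. Nfe2l1 itself was at -0.16 and -0.23 and was not called. On the high-fat diet Nfe2l2 (NRF2), the oxidative stress factor, rose (1.14), Bach1 (-0.70) and Hsf1 (-0.27) fell, and Nfe2l1 was at 0.33 without passing (edgeR adjusted p = 0.0659). Of the 13 genes of MHC class I presentation, 4 rose and 1 fell in exercised tumours and 4 rose and 0 fell in non-exercised tumours, with Tap1 (0.46 and 0.36), Nlrc5 (0.64 and 0.54) and Tapbp (0.25 and 0.28) higher in both. In the exercise comparisons and in the interaction, no gene of these 3 lists was called.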

How the data were processed

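RNA from frozen liver was sequenced with the TruSeq Stranded mRNA kit. The authors deposited raw counts per gene, made with featureCounts 2.0.5 on GENCODE M27 (GRCm39) with strand setting 2, per the file headers. Trim Galore 0.6.10, STAR 2.7.11a and Subread 2.0.5 stand in the submitters' processing notes. Groups came from the sample titles.

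Genes were kept by filterByExpr (minimum count 10, minimum total 15), leaving 14428, scaled by TMM and fitted over all 5 groups with edgeR 4.0.16 (robust quasi-likelihood, 15 residual degrees of freedom, R 4.3.3), with Benjamini-Hochberg adjustment over all genes tested. Standard errors are the log2 fold change divided by the root of F. CPM used TMM-scaled library sizes, and TPM, used to compare genes, took the files' gene lengths. Libraries of 1 group differed by more than counting noise. Titles give mice of 1 group separate numbers, so libraries count as replicates. Checks on simulated counts preceded the fits. The smallest library makes 1 CPM 16.5 counts.

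The same mouse number in tumour and non-tumour titles of 1 arm was read as the same mouse. Correlations of paired deviations ran from 0.075 to 0.441 in the exercised and -0.083 to 0.213 in the non-exercised arm.

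The members and gene lists were chosen with earlier results of these data known. Genes named in each comparison were the 6 cutting subunits, the activators and Psmf1, the 5 highest and 5 lowest called members or, with none called, the 2 smallest p, and of each other list up to 4 called genes. Psma6 and Psmd4 values in the exercised arm, Psmd8, Psmd10, Psmd14, Psmg2, other called members listed by name, and some genes of other lists were added after values were seen, as were the lists of 46 and 31 genes, the promoters printed and the alternative without scaling factors. Alternatives were RLE and upper-quartile scaling, other filters, DESeq2 1.42.0, fits of the compared groups alone, replicate blocks and each library left out. One partner, Paaf1, was not matched. Protein sequences were not used here. Results for some genes of the other lists are not reported here.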

Additional observations from a re-analysis of the deposited data

Results flagged for a closer look

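A library far from the other 3 of its group was found for 6 of 145 sets of 4 CPM values examined (gap over range above Dixon's critical value at the 95% level), a rule by which chance flags about 1 in 20. Psmb8 stood at 56.8 CPM in mouse 1 of the exercised tumours, against 34.0 to 37.8 CPM in the others. Psme3 stood at 64.1 CPM in mouse 2 of the non-exercised tumours, against 54.0 to 55.5 CPM. Psmd12 stood at 99.6 CPM in mouse 1 of the exercised non-tumour liver, against 86.3 to 87.3 CPM. Psmc1 stood at 93.6 CPM in mouse 4 of the non-exercised non-tumour liver, against 111 to 114 CPM. In mouse 2 of the normal-diet group, Psmd9 stood at 50.7 CPM, against 37.1 to 38.3 CPM, and Psma4 at 83.2 CPM, against 96.5 to 97.9 CPM.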

How the results depend on the processing

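In tumours of the exercised arm 21 members were called, and 4986 of 14428 genes tested. Fitted from that arm's libraries alone, 11 members were called, and 3432 of 13614 genes. With library totals and no scaling factor, an alternative chosen after seeing the data, 36 members and 4858 of 14428 genes were called. With 1 library left out 15 to 26 members and 3731 to 5536 genes were called. In the non-exercised arm 22 members were called, and 5164 of 14428 genes. With library totals 33 members and 4759 genes were called. With 1 library left out 15 to 29 members and 3753 to 5938 genes were called. The block by mouse called 20 and 22, of which 18 and 20 were among those called without it. Of 14333 genes it called 4725 in the exercised and 5111 in the non-exercised arm. On the high-fat diet 9 members were called, and 3740 of 14428 genes. With upper-quartile scaling 3 members and 3653 genes were called, and without a filter on low counts 2 members and 2823 of 29517 genes. DESeq2 called 14 members (2 higher, 12 lower) and 4240 of 16345 genes, and RLE scaling 11 members (2 higher, 9 lower) and 3785 genes. With library totals 8 members, all higher, and 4295 genes were called. With 1 library left out 3 to 10 members and 2713 to 3616 genes were called. The block by replicate number, which pairs different mice, called 9 members and 4069 of 13306 genes. Library totals shifted the median of all genes tested by 0.23 in the diet comparison. In the tumour comparisons they shifted it by -0.13 in the exercised and -0.11 in the non-exercised arm. The cause of these changes was not tested. The exercise comparisons and the interaction called 0 members under every alternative run. Of 52 called values, 26 kept their call under all 16 alternatives, among them Psmb8 and Psmb9 on the high-fat diet. With 4 libraries a group, intervals for the exercise comparisons allow changes of up to 1.56-fold in non-tumour liver and 1.44-fold in tumours over the 46 genes plotted.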
